A study of Homo sapiens with 148 samples.

Results

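RNA-seq data from the differentiation of H9 human embryonic stem cells (hESCs) toward pancreatic islet cells were examined for 10 genes of bone morphogenetic protein (BMP) signalling: the ligand genes BMP2, BMP4, BMP5 and BMP7, the genes for the secreted antagonists NOG, CHRD and GREM1, and the target genes ID1, ID2 and ID3. The genes are named in the rule, which uses no measured value, and all 10 were found among the 49085 gene names of the deposited table, each as a single entry. These genes and the further gene lists below were, however, chosen with earlier results of these data known. Counts of them set beside the share of all names are therefore a description only. H9 is an established hESC line, used here without genetic change, and the stages compared were undifferentiated hESCs, definitive endoderm (DE, day 4), primitive gut tube-like cells (PGT, day 7), pancreatic progenitors (PP, day 14), organoids of β-like cells (called SC-β organoids, day 35) and a stage labelled PH, which the sources used here do not define. The hESCs were kept on a coated surface, and DE, PGT, PP and SC-β cells were grown as spheroids in rotating plates; DE cells had received Activin A with CHIR99021, a GSK3 inhibitor that raises WNT signalling, and the ROCK inhibitor Y27632, PGT cells then received the growth factor KGF, and PP cells received KGF, the Hedgehog pathway inhibitor Sant1, retinoic acid, the protein kinase C activator PdBU and Y27632. LDN193189, which blocks BMP type I receptors, was in the medium on day 7 only, the day on which PGT cells were taken. Whether PGT cells were taken before or after that feed is not given in the sources used here. PP and SC-β cells, taken later, had been through that feed, and hESCs and DE cells had not. The later medium held retinoic acid, Sant1, the Notch pathway inhibitor XXI, betacellulin, thyroid hormone (T3) and Alk5i II, an inhibitor of the TGF-β type I receptor, and SC-β organoids ended in Alk5i II and T3. How PH cells were grown and which agents they received are not stated, beyond a label of pancreatic differentiation.

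BMP ligands are secreted dimers that bring together type I and type II receptor kinases, which phosphorylate SMAD1, SMAD5 and SMAD9, and these then enter the nucleus with SMAD4. Noggin (NOG), chordin (CHRD) and gremlin 1 (GREM1) bind the ligands outside the cell and keep them from their receptors. The ID genes are among the direct targets of the SMADs and encode helix-loop-helix proteins without a DNA-binding region, which pair with basic helix-loop-helix factors and keep these from DNA. In the embryo, BMP signals from the heart and septum transversum favour liver over pancreas in the foregut endoderm, which is why BMP inhibitors are used in protocols of this kind.

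RNA-seq covered 12 of the 148 samples in the labels, with 2 for every stage. The table gives 1 value per gene and stage, the mean over replicates in TPM, a unit of transcript abundance that corrects for transcript length and scales each library to the same total, so levels can be set side by side between genes. The spread between replicates is not part of the table and read counts cannot be recovered from TPM. Every value below is therefore the authors' mean without an error, no test between stages was possible, and no order between neighbouring stages can be set against replicate error. Differences are given as log2 ratios of mean TPM after adding 1 TPM, and a gene was called changed from 2-fold on that scale, as a description of these means. The fixed TPM total also ties the genes together. Abundant non-coding RNAs such as RN7SK, RMRP and the RN7SL genes (6 names in all) took from 31.8% of the total in DE to 50.9% in PH, and the median gene among 13938 names at 1 TPM or more in every stage was shifted, in log2 units, by 0.48 in DE and 0.52 in SC-β organoids relative to hESCs, by 0.27 in SC-β organoids relative to PP, by -0.22 in PH relative to PP and by -0.50 in PH relative to SC-β organoids. The shifts were 0.34 in PGT and 0.25 in PP relative to hESCs, -0.15 in PGT relative to DE and -0.09 in PP relative to PGT. Calls of the 10 genes that do not outlast this shift are named below.

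The ID genes had the highest levels of the 10 at every stage, except that in DE BMP2 (82.6 TPM) was above ID2 (48.4 TPM). Their known SMAD-responsive sequence is best described for ID1, where it lies well upstream of the start of transcription and holds the letters GGCGCC, a site bound by SMAD1. ID1 (ENSG00000125968.9) spans chromosome 20, 31605283 to 31606515, forward strand, in GENCODE version 44 on GRCh38, the build the authors call hg38. GGCGCC occurred once in the 2000 bases before this start, from 31604324 to 31604329, where the motif begins 959 bases before the gene. The sequence around it, chr20:31604252-31604401 on the forward strand of hg38, is shown because ID1 had the highest level of the 10 genes, and its capitals mark GGCGCC, which reads the same on both strands.
ID1 upstream: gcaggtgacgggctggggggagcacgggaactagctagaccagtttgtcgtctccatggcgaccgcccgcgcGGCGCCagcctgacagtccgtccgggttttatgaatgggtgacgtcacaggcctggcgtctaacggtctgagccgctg
The same letters were found in the 2000 bases before the start of 8256 of 20045 protein-coding genes (41.2%) and of 5 of the 10 genes, namely BMP5, NOG, CHRD, GREM1 and ID1, so the match is common. ID3 (ENSG00000117318.9, chromosome 1, 23557926 to 23559501, reverse strand) had no GGCGCC there. In the 250 bases before the RefSeq start on GRCh38.p14, which the sequence table gives for 7 of the 10 genes, the SMAD box CAGAC was searched on both strands and occurred once for ID3, not for ID1 or ID2. It was also found in windows of GREM1 and in some of BMP4, and not in those of BMP5 or CHRD. The ID1 stretch shown above lies outside the 250-base window and does hold the complement GTCTG, left in small letters. The ID3 window is chr1:23559502-23559751, printed along the gene's own strand with CAGAC in capitals.
ID3 promoter: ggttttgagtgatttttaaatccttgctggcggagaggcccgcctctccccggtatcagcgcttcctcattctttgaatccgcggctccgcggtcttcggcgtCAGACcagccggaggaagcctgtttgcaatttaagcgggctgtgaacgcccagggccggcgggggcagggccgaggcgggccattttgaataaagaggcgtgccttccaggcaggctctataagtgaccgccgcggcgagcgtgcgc
CAGAC or its complement was in 13345 of 35116 such windows (38%) and GGCGCC in 5752 (16.4%). These matches are letters in a window, and no binding was measured.

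All 3 ID genes had their highest mean in PGT and their lowest in hESCs. ID1 was at 79.4 TPM in hESCs and 412.4 in DE, then 764 in PGT and 147 in PP, with 116 in PH and 314.4 in SC-β organoids. ID1 was thus highest in PGT, DE and SC-β organoids were within 1.5-fold of each other, and so were PP and PH. ID2 (ENSG00000115738.10, chromosome 2, 8678845 to 8684461, plus strand) was at 36.2 TPM in hESCs and 48.4 in DE, then 302 in PGT and 102 in PP, with 109 in PH and 195 in SC-β organoids. Unlike ID1, ID2 was within 1.5-fold of its hESC level in DE. ID3 was at 86.3 TPM in hESCs and 188 in DE, then 386 in PGT and 145.4 in PP, with 139.5 in PH and 249.6 in SC-β organoids. ID1 led the summed ID level in DE (63.5% of 649 TPM) and in PGT (52.6% of 1452 TPM), whereas in hESCs ID3 led with 42.7% of 202 TPM.

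**Figure D1:**
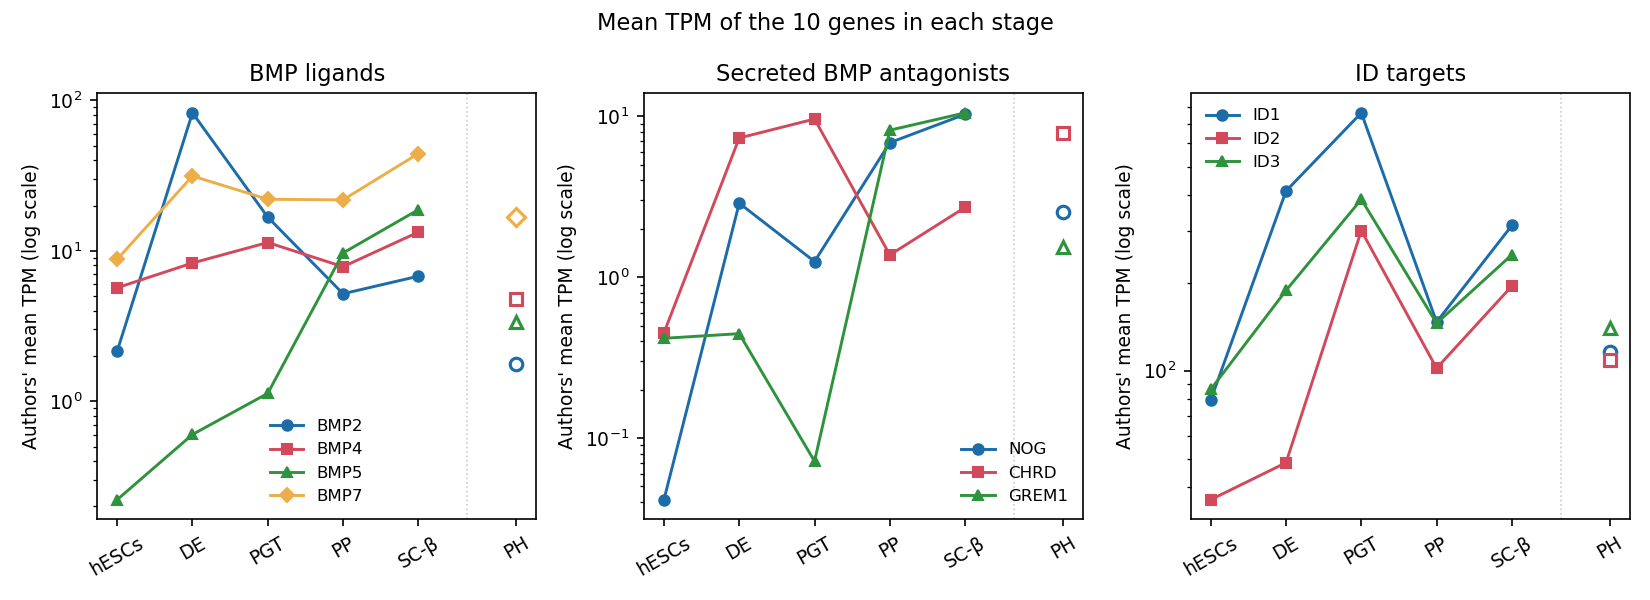
Authors' mean TPM (log axis) of the BMP ligand genes (left), the antagonist genes (middle) and the ID genes (right) in each stage, with 1 point per gene and stage, no error bars because the table gives means, and PH as open symbols apart from the line because its place in the series is not defined. BMP2 peaks in DE at 82.6 TPM, CHRD and the ID genes in PGT, and BMP5, NOG and GREM1 reach their highest values in SC-β organoids.

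BMP2 (ENSG00000125845.7, chromosome 20, 6767686 to 6780246, forward strand), a ligand of heart, bone and gut development, was the ligand gene that varied most early on. It was at 2.15 TPM in hESCs and 82.6 in DE, then 16.7 in PGT and 5.18 in PP, with 1.77 in PH and 6.78 in SC-β organoids. DE stood apart, 4.94-fold above the next stage, and BMP2 made up 67.2% of the 122.9 TPM summed over the 4 ligand genes there. BMP7 (ENSG00000101144.13, chromosome 20, 57168753 to 57266641, reverse strand), a ligand needed for kidney and eye, led that sum in every other stage, with 43.0% in PGT at the least and 63.0% in PH at the most. BMP7 was at 8.78 TPM in hESCs and 31.4 in DE, then 22.0 in PGT and 21.8 in PP, with 16.8 in PH and 44.3 in SC-β organoids.

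BMP4 (ENSG00000125378.16, chromosome 14, 53949736 to 53958761, reverse strand), which patterns mesoderm and the ventral gut, had the narrowest range of the 10 genes, 2.80-fold from lowest to highest. It was at 5.68 TPM in hESCs and 8.30 in DE, then 11.4 in PGT and 7.84 in PP, with 4.75 in PH and 13.3 in SC-β organoids, and each stage was within 1.5-fold of the next in this order of levels. BMP5 (ENSG00000112175.8, chromosome 6, 55753653 to 55875590, reverse strand), a close relative of BMP7, was a late gene, at 0.222 TPM in hESCs and 0.602 in DE, then 1.13 in PGT and 9.67 in PP, with 3.35 in PH and 18.8 in SC-β organoids. Its levels ranged 84.5-fold, and no neighbouring stages in its order of levels were within 1.5-fold.

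The antagonist genes were low in hESCs, where their summed level was 0.909 TPM, and did not share 1 pattern. CHRD (ENSG00000090539.16, chromosome 3, 184380054 to 184390736, plus strand) was at 0.451 TPM in hESCs and 7.34 in DE, then 9.62 in PGT and 1.37 in PP, with 7.91 in PH and 2.72 in SC-β organoids. PGT, PH and DE were high and within 1.5-fold of the next, and PP was low. GREM1 (ENSG00000166923.12, chromosome 15, 32718004 to 32745106, forward strand) ran the other way, at 0.417 TPM in hESCs and 0.445 in DE, then 0.0717 in PGT and 8.20 in PP, with 1.54 in PH and 10.5 in SC-β organoids. NOG (ENSG00000183691.6, chromosome 17, 56593699 to 56595611, plus strand) was at 0.0413 TPM in hESCs and 2.88 in DE, then 1.25 in PGT and 6.86 in PP, with 2.53 in PH and 10.3 in SC-β organoids. CHRD was the leading antagonist gene in hESCs, DE, PGT and PH, and GREM1 in PP and in the organoids. The summed ligand level was 18.5 times the summed antagonist level in hESCs, 11.5 in DE, 4.68 in PGT and 2.71 in PP. It was 2.23 times in PH and 3.53 times in SC-β organoids, as a ratio of RNA levels over these 7 genes. Other antagonist genes are left out, among them CER1, a secreted BMP inhibitor, at 269.7 TPM in hESCs and 1483 in DE. CER1 was at 1.63 TPM in PGT and 1.58 in PP, so this ratio does not describe all antagonists.

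Between hESCs and DE, 6 of the 10 genes were at least 2-fold higher and 0 lower, against 12.9% of all names higher and 2.55% lower, and 26.5% and 6.39% of names at 5 TPM or more in either stage. Of the 10 genes, 7 reached 5 TPM in either stage, and NOG (2.88 TPM in DE), which was called higher, did not. Gene counts here and below cover all genes of a list, also those left out of the shares at 5 TPM. BMP2 had a log2 ratio of 4.73, CHRD of 2.52, ID1 of 2.36, NOG of 1.90, BMP7 of 1.73 and ID3 of 1.12. Once each stage was rescaled to the median gene, the ratio of ID3 was 0.64 and under 2-fold, and those of GREM1 (0.03) and ID2 (0.41) turned to -0.12 and -0.06. The median log2 ratio over the 10 genes was 1.42, beside 0.12 over all names and 0.44 over names at 5 TPM or more.

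**Figure D2:**
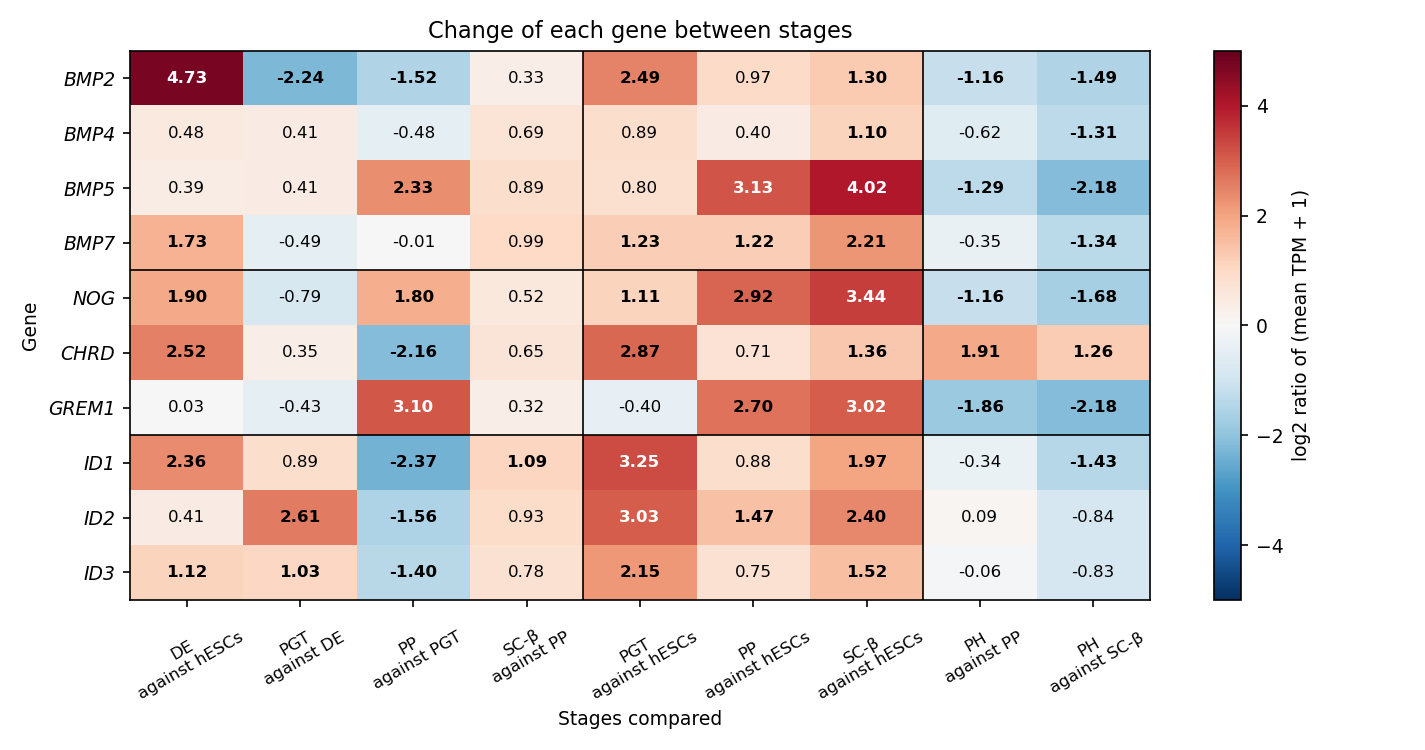
Log2 ratios of (mean TPM + 1) for the 10 genes (rows) in the 9 comparisons (columns), with values of at least 2-fold in bold. The 4 successive steps stand on the left, comparisons with hESCs in the middle and PH on the right; in the step from PGT to PP all 3 ID genes are negative while BMP5, NOG and GREM1 are positive.

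From DE to PGT, ID2 and ID3 were at least 2-fold higher and BMP2 was lower, that is 2 and 1 of the 10 genes, against 2.3% of all names higher and 4.92% lower (5.42% and 10.5% of names at 5 TPM or more). ID2 had a log2 ratio of 2.61 and ID3 of 1.03, and BMP2 had -2.24. ID1 had 0.89, and 1.03 after median-ratio rescaling. With a pseudocount of 0.1 TPM, NOG (-1.14) and GREM1 (-1.67) were also lower, which rests on values from 0.0717 to 2.88 TPM. The median over the 10 genes was 0.38, beside -0.03 over all names.

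Between PGT and PP, 8 of the 10 genes differed by at least 2-fold. ID1, CHRD, ID2, BMP2 and ID3 were at least 2-fold lower and GREM1, BMP5 and NOG at least 2-fold higher, 5 and 3 of the 10 genes, against 3.25% of all names lower and 2.74% higher (8.05% and 6.28% of names at 5 TPM or more). The log2 ratios were -2.37 for ID1, -1.56 for ID2 and -1.40 for ID3, -2.16 for CHRD and -1.52 for BMP2. They were 3.10 for GREM1, 2.33 for BMP5 and 1.80 for NOG. These 8 calls held under both rescalings, without the 100 most abundant names and with a pseudocount of 0.1 TPM. BMP4 (-0.48) and BMP7 (-0.01) stayed under 2-fold, the latter at 0.07 after rescaling. With a 4-fold threshold, ID1 and CHRD remained as lower, and GREM1 and BMP5 as higher.

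From PP to SC-β organoids, the 10 genes all had a positive log2 ratio, from 0.32 for GREM1 to 1.09 for ID1, and only ID1 reached 2-fold, 1 of the 10 genes against 10.6% of all names higher and 0.939% lower (17.7% and 2.27% of names at 5 TPM or more). The median over the 10 genes was 0.73, beside 0.16 over all names and 0.31 over names at 5 TPM or more. GREM1 (0.32) and BMP2 (0.33) were close to this last value. The share of all names with a positive ratio was not computed. After median-ratio rescaling ID1 was at 0.82 and 0 of the 10 genes passed. Set against hESCs at the start, all 10 genes were at least 2-fold higher in SC-β organoids, against 22.2% of all names higher and 3.7% lower (37.7% and 8.79% of names at 5 TPM or more), with log2 ratios from 1.10 for BMP4 to 4.02 for BMP5. BMP4 (0.63) and BMP2 (0.90) were under 2-fold after median-ratio rescaling. Relative to hESCs, PP had 5 of the 10 genes higher by 2-fold or more and 0 lower, against 7.98% of all names higher and 4.06% lower (18.7% and 10.6% of names at 5 TPM or more). The count of 5 was 8 without mitochondrial and the 100 most abundant names. PGT had 7 higher and 0 lower, against 10.1% and 4.34% of all names (23.6% and 11.1% of names at 5 TPM or more). The log2 ratios to hESCs in PGT were 3.25 for ID1, 3.03 for ID2 and 2.15 for ID3, and in PP they were 0.88, 1.47 and 0.75. BMP7 had 1.23 in PGT and 1.22 in PP, and after median-ratio rescaling 0.93 and 0.997, both under 2-fold.

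PH differed from PP by 2-fold or more in all 3 antagonist genes. CHRD was higher in PH than in PP (log2 ratio 1.91), and GREM1 (-1.86), BMP5 (-1.29), BMP2 (-1.16) and NOG (-1.16) were lower, 1 and 4 of the 10 genes, against 5.14% of all names higher and 5.73% lower (10.6% and 14.4% of names at 5 TPM or more). NOG was at -0.99 after median-ratio rescaling. The ID genes were within 1.5-fold of PP, with log2 ratios of -0.34, 0.09 and -0.06, the last turning to 0.16 after rescaling. Against SC-β organoids, CHRD was again higher (1.26) and 7 of the 10 genes were lower, with 2.41% of all names higher and 14.7% lower (5.03% and 25.8% of names at 5 TPM or more). The 4 ligand genes, GREM1, NOG and ID1 were the lower ones, but BMP4, BMP7 and ID1 were under 2-fold after median-ratio rescaling, which left 4.

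The other genes of the pathway were described from a list of 51: 10 ligands, 7 receptors, 4 co-receptors, 4 SMADs that transduce the signal, 16 extracellular antagonists or modulators, 5 intracellular inhibitors (with the pseudoreceptor BAMBI) and 5 further target genes. All 51 were found, HJV under its older symbol HFE2, and 37 reached 5 TPM in some stage. In DE against hESCs 18 were at least 2-fold higher and 2 lower, beside 12.9% and 2.55% of all names (26.5% and 6.39% of names at 5 TPM or more). In PGT against DE there were 10 and 9, beside 2.3% and 4.92% (5.42% and 10.5%). In PP against PGT there were 6 and 9, beside 2.74% and 3.25% (6.28% and 8.05%). In SC-β organoids against PP there were 10 and 2, beside 10.6% and 0.939% (17.7% and 2.27%). This last count of higher genes was 6 after median-ratio rescaling and 18 with a pseudocount of 0.1 TPM. Their median log2 ratios in these steps were 0.56, -0.04, -0.14 and 0.35, beside 0.12, -0.03, 0.00 and 0.16 over all names.

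Several inhibitors that BMP signals themselves induce were, like the ID genes, lower in PP than in PGT. SMAD6, an inhibitory SMAD, was at 3.57 TPM in hESCs and 103.7 in DE, then 73.6 in PGT and 8.72 in PP, with 7.75 in PH and 24.9 in SC-β organoids. BAMBI, a receptor-like protein without a kinase, was at 18.3 TPM in hESCs and 53.0 in DE, then 390.5 in PGT and 32.1 in PP, with 7.15 in PH and 51.9 in SC-β organoids. SMAD7, an inhibitory SMAD shared with the TGF-β branch, was at 17.2 TPM in hESCs and 43.3 in DE, then 60.0 in PGT and 9.31 in PP, with 8.97 in PH and 13.3 in SC-β organoids. SMAD6 and SMAD7 were high in DE and PGT and BAMBI in PGT, and all 3 were at least 2-fold lower in PP than in PGT. The log2 ratios were -2.94 for SMAD6, -2.56 for SMAD7 and -3.57 for BAMBI, whereas the ubiquitin ligases SMURF1 and SMURF2 had -0.25 and -0.43. SMAD9, a transducing SMAD, was also lower in PP, going from 0.487 TPM in hESCs to 28.9 in PGT and 3.42 in PP, while SMAD1 (21.5 TPM in PP), SMAD5 (38.8) and SMAD4 (36.5) were within 2-fold of PGT.

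**Figure D3:**
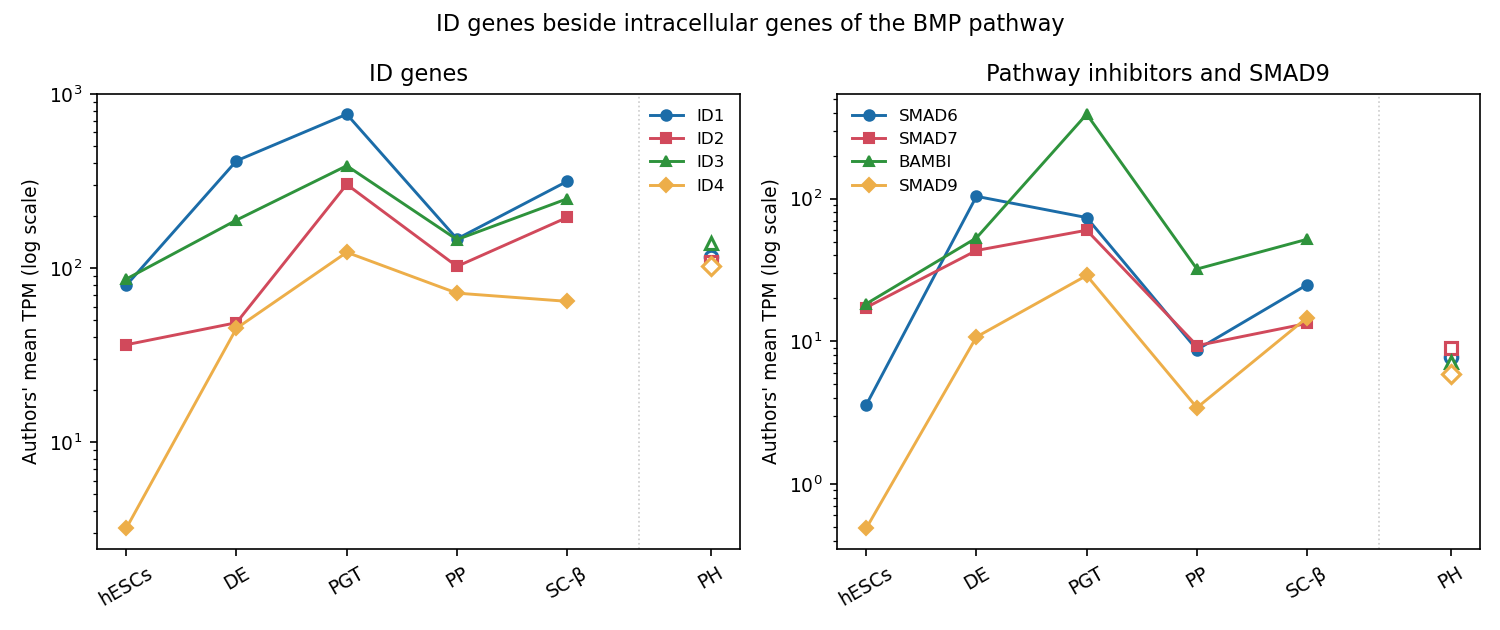
Authors' mean TPM (log axis) by stage of ID1 to ID4 (left) and of SMAD6, SMAD7, BAMBI and SMAD9 (right), with PH as open symbols. ID1 to ID3, BAMBI, SMAD7 and SMAD9 peak in PGT and SMAD6 in DE, and all of these are lower in PP, as is ID4, by under 2-fold, at 71.6 TPM.

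Not all targets were at least 2-fold lower in PP. ID4, the remaining ID gene, was at 3.19 TPM in hESCs and 45.0 in DE, then 122.9 in PGT and 71.6 in PP, with 102.7 in PH and 64.3 in SC-β organoids. The homeobox gene MSX1 was at 11.2 TPM in PGT and 28.2 in PP, and ATOH8, a basic helix-loop-helix factor, at 2.27 and 9.78, log2 ratios of 1.25 and 1.72. MSX2 was at 41.9 and 43.2 TPM and HEY1, which Notch signals also induce, at 10.4 and 15.2. Relative to hESCs, all 5 of these target genes were higher by 2-fold or more in PGT, PP and SC-β organoids alike.

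Among the receptors, BMPR1A, the widely used type I receptor, was at 38.7 TPM in hESCs and lowest in PH at 12.2, and with 1 TPM added it stayed under 2-fold in the 9 comparisons, which do not include PH against hESCs. BMPR1B, a type I receptor of cartilage and ovary, was at 0.792 TPM in hESCs and 2.89 in DE, then 2.12 in PGT and 7.42 in PP, with 7.82 in PH and 8.23 in SC-β organoids. Its log2 ratio was 1.43 in PP against PGT. The type II receptor genes ACVR2B (24.8 TPM in hESCs and 72.9 in DE), ACVR2A (5.54 and 17.8) and BMPR2 (6.71 and 19.7) were at least 2-fold higher in DE, with log2 ratios of 1.52, 1.53 and 1.43 beside the shift of the median gene of 0.48. Receptor RNA was thus found at every stage. Of the other ligands, GDF7 was at 27.7 TPM in SC-β organoids and no higher than 1.64 elsewhere, GDF6 was at 6.97 TPM in PGT and BMP6 at 5.89 TPM in PGT. The rest did not reach 5 TPM. BMP8A and BMP8B are near-identical copies, so the split between them is uncertain.

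Further genes from the list of extracellular antagonists or modulators, not all of them BMP antagonists in the first place, changed at the same step as NOG and GREM1. SOST, which encodes sclerostin, was at 0.0656 TPM in PGT and 8.57 in PP, SOSTDC1 at 0.134 and 6.58, and CHRDL1 at 2.22 and 5.95, log2 ratios of 3.17, 2.74 and 1.11. BMPER (12.6 and 1.84 TPM) and FST, encoding the activin-binding protein follistatin (16.2 and 3.81 TPM), went the other way, with log2 ratios of -2.26 and -1.83. Of the 16 extracellular genes, 3 were at least 2-fold higher and 2 lower at this step, beside 2.74% and 3.25% of all names (6.28% and 8.05% of names at 5 TPM or more).

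**Figure D4:**
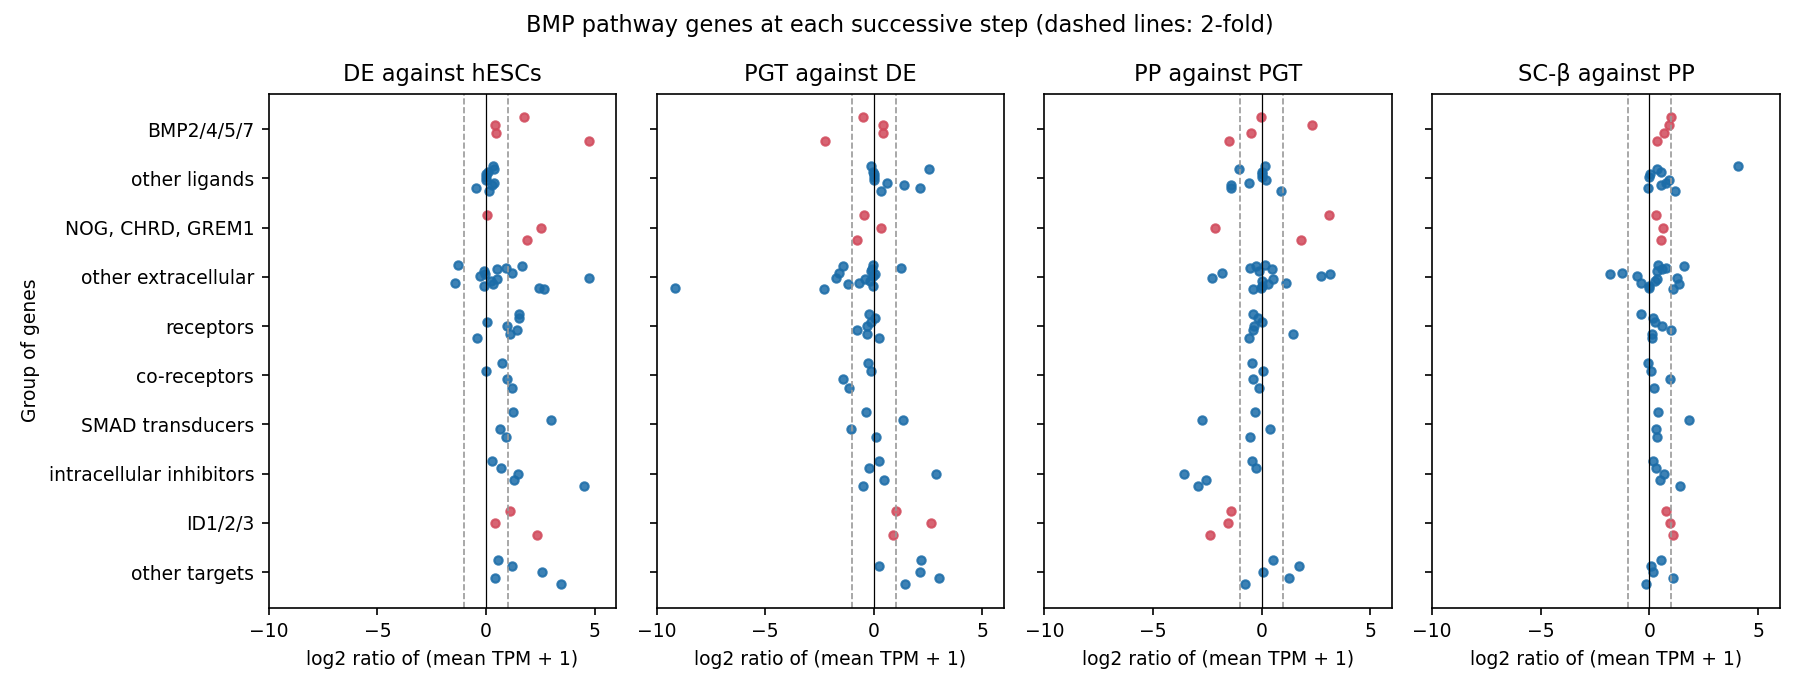
Log2 ratios of (mean TPM + 1) in the 4 successive steps for the 10 genes (red) and the 51 other pathway genes (blue), 1 point per gene, by role; dashed lines mark 2-fold. In PP against PGT the 3 ID genes and 3 of the 5 intracellular inhibitors lie left of the lower line, and NOG and GREM1 right of the upper one.

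The labelled stages were checked against marker lists. The 4 pluripotency markers summed to 2351 TPM in hESCs and 78.8 in SC-β organoids, the 5 endoderm markers to 705.7 TPM in DE, the 4 gut tube markers to 185 TPM in PGT, and all 4 pancreatic progenitor markers reached 1 TPM in PP. In SC-β organoids these 4 and all 5 islet markers did so too, but PDX1, which marks both, was low in PP and SC-β organoids (3.17 and 1.57 TPM). The islet list summed to 4101 TPM in SC-β organoids, of which GCG gave 2793, CHGA 805, INS 298, SST 203 and IAPP 1.83. PP already had 4 of the 5 islet markers at 1 TPM, with 286.7 TPM summed. PH held 3.64 TPM of the gut tube list, close to the 2.25 of hESCs, and 313 TPM of the 6 neural progenitor markers against 64.6 in PP. NES gave 135.8 TPM and HES5 109.8 of that sum in PH. This list was also at 133.9 TPM in hESCs and 134.1 in SC-β organoids, of which NES gave 121.4 and 111.3. The 5 endoderm markers summed to 108.4 TPM in PH and 48.8 in PP, of which CXCR4 gave 106.4 and 23.0, while SOX17 and EOMES were listed at 0 in PH. The 10 mesenchyme markers summed to 87.4 TPM in hESCs (of which COL1A2 gave 70.0), 67.2 in DE, 98.0 in PGT, 191 in PP, 1072 in PH and 2221 in SC-β organoids, and all 10 reached 1 TPM in the last 3 of these but only 5 in PGT. BMP5, NOG and GREM1 were likewise highest in SC-β organoids. In PH, however, the mesenchyme list was above PP while BMP5, NOG and GREM1 were below it. The islet list, like these genes, was lower in PH (170.0 TPM) than in PP (286.7) and highest in SC-β organoids. The pluripotency, gut tube, pancreatic progenitor and hepatocyte lists were lower in PH than in PP too. The neural progenitor list was highest in PH, where CHRD was high, but that list was at 28.9 TPM, its lowest, in PGT, where CHRD had its highest value. NES gave 27.9 TPM of that lowest sum. The 5 hepatocyte markers summed to 1270 TPM in PGT, the stage with the highest ID levels, 153 in PP but 1430 in SC-β organoids. TTR gave 943 TPM of the sum in PGT and 1229 in SC-β organoids, so both sums rest mainly on 1 gene. ALB was at 2.99 TPM in PGT and 39.3 in SC-β organoids, and APOA1 at 251.8 and 36.0. The 4 endothelial markers summed to 198.7 TPM in DE, of which VWF gave 191, and at most 20.8 elsewhere, with PECAM1 and CDH5 under 1 TPM at every stage. The part of these cells in the levels of the 10 genes was not tested, and in bulk RNA fewer cells of a type and less RNA per cell cannot be told apart.

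**Figure D5:**
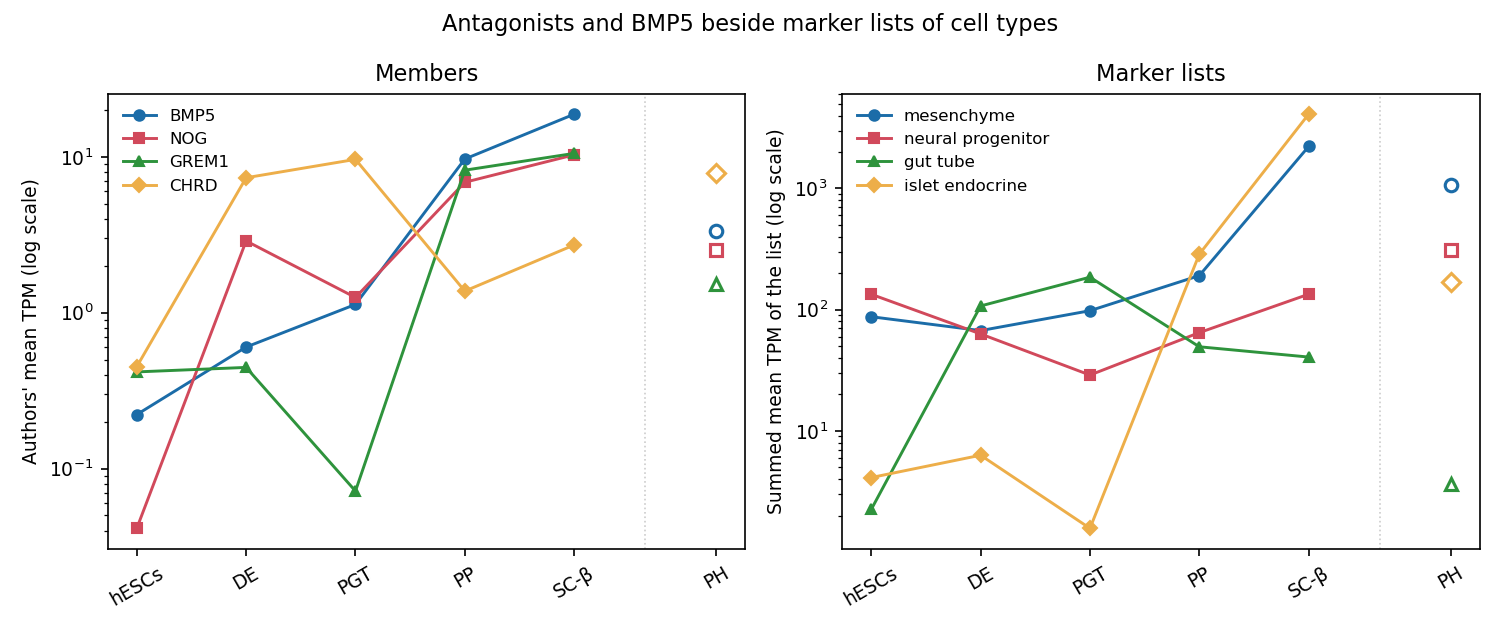
Authors' mean TPM of BMP5, NOG, GREM1 and CHRD (left) and the summed mean TPM of 4 marker lists (right) by stage, both on log axes, with PH as open symbols. The mesenchyme list is at 1072 TPM in PH against 191 in PP, whereas BMP5, NOG and GREM1 are lower in PH than in PP. The islet list is also lower in PH, at 170.0 TPM against 286.7 in PP.

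For the 9 genes that reached 10 TPM in some stage, the 12088 other names at that level were ordered by the root-mean-square difference of their log2 profiles over the 6 stages, each centred on its own mean. This likeness over 6 means is a description and says nothing of shared control. BMP2 was most like MGST2 (0.33 log2 units), TMEM133 (0.37) and PLCXD3 (0.45), and BMP7 like UBXN11 (0.08), RNU6-130P (0.11) and MIR570 (0.13). BMP4 was most like SLC30A7 (0.06), ERRFI1 (0.11) and TOM1 (0.11). BMP5 and GREM1 had the same nearest name, GIF, the gastric intrinsic factor (0.24 and 0.27). The next for BMP5 were DLX6-AS1 and ADAM12 (both 0.33), and for GREM1 SGPP2 and VSIG1 (both 0.30), with GREM1 at place 15 for BMP5 and BMP5 at place 11 for GREM1 (0.43). NOG was most like TXNIP (0.31), RAB36 (0.31) and DPY19L2 (0.31). ID1 was most like PSTPIP2 (0.25), ENPEP (0.29) and FAM118A (0.30), and ID3 stood at place 57 (0.53). ID2 was most like HS3ST3B1 (0.28), PCDH17 (0.32) and SESN3 (0.38), and ID3 like FAM109A (0.10), DFNA5 (0.17) and SNORA37 (0.19).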

How the data were processed

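Total RNA from H9 hESCs and their derivatives was depleted of ribosomal RNA and made into libraries with a stranded mRNA kit, per the labels. Per the submitters' processing notes, alignment was to hg38 by HISAT2 (version 2.2.0), and the authors' TPM values came from StringTie (version 2.1.6). The deposited table holds mean TPM per gene and stage over 2 biological replicates. Its annotation, and whether counting used strand, are not given in the sources used here. BMP7, GREM1, ID2, CHRD and BMP4 each overlap a gene on the other strand (for CHRD, THPO), so reads of such pairs may not be separable. Depth per sample cannot be read from TPM, and no interval or detection floor is given.

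The 50451 entries were summed to 49085 names. Log2 ratios used a pseudocount of 1 TPM, and 9 comparisons were made. No p-value was computed. Alternatives were a pseudocount of 0.1 TPM, median-ratio rescaling, totals without mitochondrial and the 100 most abundant names, a 4-fold threshold, a 5 TPM filter and the highest of repeated entries. Rescaling without PH and the 2000-base sequence window were added after seeing the data. Members and lists were chosen with earlier results of these data known. Named genes were the 10 members, pathway genes at 5 TPM or changed 2-fold, and the 3 nearest names in profile. The authors' edgeR test needs counts per replicate and was not repeated. Calls were checked on simulated data. Python 3.11.15, numpy 2.4.6, pandas 2.3.3 and matplotlib 3.10.9 were used. The other assays are not analysed here.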

Additional observations from a re-analysis of the deposited data

How the results depend on the processing

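No paired analysis was possible because each deposited column is already a mean over its 2 replicates, and for that reason no replicate could be left out. Of 430 log2 ratios of the 10 genes under the alternatives, 395 stayed on their side of 2-fold, 20 dropped under it, 15 passed it, and 10 that were under 2-fold changed sign. The precision of values near or below 1 TPM is unknown. The share of all names called was computed only at 2-fold with 1 TPM added and without rescaling. Apart from the 5 TPM filter, the counts below thus show how calls moved and cannot be set against all names. Why these results moved was not tested, except that a 4-fold threshold and a 5 TPM filter can only lower a count. Keeping the highest of repeated entries moved no count. For the 10 genes this follows from their single entries, and for the other pathway genes the number of entries was not listed.

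With a 4-fold threshold, the genes of the 10 that were higher numbered 3 in DE and 5 in SC-β organoids against hESCs, 3 in PP against hESCs, 1 in PGT against DE, and 0 in SC-β organoids against PP, in PH against PP and in PH against SC-β organoids, and the lower ones 2 in PP against PGT, 0 in PH against PP and 2 in PH against SC-β organoids. Of the 51 other pathway genes, 7 were then higher and 0 lower in DE against hESCs, 6 and 2 in PGT against DE, 2 and 5 in PP against PGT, 1 and 0 in SC-β organoids against PP, and against hESCs 10 higher in PGT, 8 in PP, 12 in SC-β organoids, 2 higher and 2 lower in PH against PP, and 2 higher and 3 lower in PH against SC-β organoids. With the 5 TPM filter, 1 pathway gene was lower in DE against hESCs and 1 in SC-β organoids against PP.

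With a pseudocount of 0.1 TPM, 3 of the 10 genes were lower in PGT against DE, 1 in PGT against hESCs (GREM1), and 2 were higher in SC-β organoids against PP. Of the pathway genes, 18 were higher in SC-β organoids against PP, 5 lower in PGT against hESCs, and 11 higher and 7 lower in PH against PP.

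With median-ratio rescaling, 0 of the 10 genes were higher in SC-β organoids against PP and 4 lower in PH against SC-β organoids. Of the pathway genes, 6 were higher in SC-β organoids against PP, 6 lower in PP and 5 in SC-β organoids against hESCs, and 9 higher and 5 lower in PH against SC-β organoids. Factors taken without PH gave the same counts of 0, 6, 6 and 5. Without mitochondrial and the 100 most abundant names, 8 of the 10 genes were higher in PP against hESCs, 0 higher in SC-β organoids against PP and 4 lower in PH against SC-β organoids, and of the pathway genes 12 were higher in PH against PP, and 8 higher and 7 lower in PH against SC-β organoids.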

Other observations

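Of the pathway genes not yet described, the co-receptors RGMA and RGMB stood out in PH, the stage that the sources used here do not define. Repulsive guidance molecules bind BMP ligands at the cell surface and also guide axons. RGMB was at 15.3 TPM in hESCs and 30.7 in DE, then 10.7 in PGT and 7.996 in PP, with 123.8 in PH and 16.3 in SC-β organoids, and RGMA at 6.27, 15.7, 6.47, 5.86, 30.9 and 7.04 TPM. Both were highest in PH, with log2 ratios to PP of 3.79 and 2.22.

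CER1, which encodes cerberus, a secreted inhibitor of Nodal and BMP ligands, had the widest change of the 51 pathway genes, from 269.7 TPM in hESCs and 1483 in DE to 1.63 in PGT, a log2 ratio of -9.14. Of the metalloproteinases that cleave chordin, BMP1 was at 3.96 TPM in hESCs, 21.3 in PGT and 25.0 in SC-β organoids, TLL1 reached 2.32 TPM in DE and TLL2 3.08 TPM in PH.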
